A study of Homo sapiens with 15 samples.

Results

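Protocadherins were described here through 40 genes of the 18417 measured on each array. They were chosen by name, as gene symbols that begin with PCDH, leaving out PCDH11Y and symbols that end in P, and only through probesets (sets of array probes read as 1 value) that the platform annotation gives to exactly 1 gene. Of 42 such symbols, 2 pseudogenes of the beta cluster were left out, and a further 3 probesets that name several protocadherins, among them PCDH11X and all alpha genes together, were not used. Where a gene had more than 1 probeset the one with the highest mean over the 15 arrays was taken, so measured values chose a probeset for PCDHA2 alone, whose means were 4.69 for the one kept and 4.05 for the other. The 40 genes comprise 29 of the gene clusters on chromosome 5 (12 alpha, 16 beta and 1 gamma gene, PCDHGB4) and 11 that stand outside the clusters, of which PCDH1 and PCDH12 also lie on chromosome 5, PCDH7, PCDH10 and PCDH18 on 4, PCDH8, PCDH9, PCDH17 and PCDH20 on 13, PCDH15 on 10 and PCDH19 on X.

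Protocadherins are single-pass membrane proteins with calcium-binding cadherin repeats outside the cell, and form the largest subgroup of the cadherin superfamily. In the clusters, each alpha or gamma gene is a variable exon with a promoter of its own, joined by splicing to constant exons that its whole cluster shares, whereas each beta gene is a single exon. Neurons switch on different sets of these promoters cell by cell, with the DNA-binding protein CTCF and cohesin looping a chosen promoter to a distant enhancer, and the proteins then bind their own kind between cells. The genes outside the clusters have separate promoters, and among them PCDH12 is known as the protocadherin of endothelial cell junctions.

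RNA was measured on Affymetrix whole-transcript arrays, 3 arrays in each of 5 groups. The groups were RNA from exosomes (small vesicles released into the medium) of JINB8 cells, a Jurkat T cell mutant that lacks the receptor CD47; RNA from exosomes of the CD47-positive parent Jurkat line (JK); human umbilical vein endothelial cells (HUVEC) kept for 6 h with JINB8 exosomes; HUVEC kept for 6 h with JK exosomes; and untreated HUVEC. JINB8 is 1 mutant line, exosomes were precipitated from medium with a polymer kit and not sorted, and the labels do not say whether untreated cells received a mock addition. The labels number the replicates but do not say that they came from separate cultures, so p-values measure the spread between these arrays, which may be technical.

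The array medians were 5.11 to 5.13 in JINB8 exosome RNA, 5.08 to 5.14 in JK exosome RNA, 5.10 to 5.13 in HUVEC with JINB8 exosomes, 5.12 to 5.18 in HUVEC with JK exosomes and 6.91 to 7.03 in untreated HUVEC, on the deposited log2 scale. The SD within an array averaged 1.55 and 1.52 in JINB8 and JK exosome RNA, against 2.20, 2.20 and 2.21 in HUVEC with JINB8 exosomes, with JK exosomes and untreated. These medians and SDs were taken over all probesets. CD47 itself read 4.58, 4.67 and 4.94 in JINB8 exosome RNA and 4.72, 4.69 and 4.72 in JK exosome RNA, so its transcript did not set the exosomes of the mutant apart from those of the parent line; where the probes lie relative to the mutation is not given in the labels. It read 8.62 to 8.78 in HUVEC with JINB8 exosomes, 8.69 to 9.04 in HUVEC with JK exosomes and 9.91 to 10.16 in untreated HUVEC. Endothelial markers held in every HUVEC group, with 12 of 13 above the 75th percentile of the array, and the T cell genes CD3D and CD3E averaged 6.81 and 6.49 in JINB8 exosome RNA, 6.52 and 6.12 in JK exosome RNA, and 3.60 and 3.21 in HUVEC with JINB8 exosomes. The summed endothelial list lay at 9.37 to 9.42 in JINB8 exosome RNA, 9.27 to 9.44 in JK exosome RNA, 14.02 to 14.08 in HUVEC with JINB8 exosomes, 13.92 to 14.04 with JK exosomes and 15.03 to 15.20 untreated (log2 of the summed signal).

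Promoter windows from RefSeq (build GRCh38.p14, 250 bases before to 50 after each gene's start) were at hand for 34 of the 40 genes; PCDH10, PCDH20, PCDHA3, PCDHA13, PCDHB6 and PCDHB11 had none. The clustered promoters carry a conserved element with the core CGCT, and the stretches below show it for the clustered genes that the comparisons turn on with the bases around it, on the plus strand and 5′ to 3′, with the core in capitals.
PCDHA4 (chr5:140806971-140807008): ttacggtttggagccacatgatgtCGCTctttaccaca
PCDHA10 (chr5:140855833-140855870): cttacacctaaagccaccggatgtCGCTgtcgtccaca
PCDHA11 (chr5:140868875-140868912): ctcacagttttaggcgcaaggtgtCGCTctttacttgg
PCDHA12 (chr5:140875236-140875273): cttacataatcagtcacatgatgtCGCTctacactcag
PCDHB2 (chr5:141094536-141094573): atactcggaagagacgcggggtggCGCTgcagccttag
PCDHB3 (chr5:141100385-141100422): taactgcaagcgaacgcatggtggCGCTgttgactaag
PCDHB5 (chr5:141135171-141135208): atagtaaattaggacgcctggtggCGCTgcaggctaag
PCDHB7 (chr5:141172558-141172595): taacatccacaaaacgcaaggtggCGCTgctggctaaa
PCDHB9 (chr5:141187066-141187103): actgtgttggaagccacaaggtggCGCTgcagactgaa
PCDHB10 (chr5:141192291-141192328): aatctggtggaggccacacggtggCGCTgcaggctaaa
PCDHGB4 (chr5:141387609-141387646): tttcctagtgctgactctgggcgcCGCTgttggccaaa
The pattern GNTGNCGCT, written after these windows had been read and searched on both strands, was found in the windows of 10 of 10 alpha genes, 13 of 14 beta genes and PCDHGB4, and in 0 of 9 genes outside the clusters, against 4.34% of all 35097 windows. In PCDHGB4 it lay on the antisense strand alone, and the stretch shown holds the looser GNNGNCGCT, which 22.6% of all windows hold. The core by itself occurs in 70% of windows. Its first base lay 38 to 81 bases before the start in the alpha genes, 65 before in PCDHGB4, and from 79 before to position 3 in the beta genes. GNTGNCGCT lay in the stretches of PCDHB5 and PCDHA11, which were lower in treated HUVEC, and in that of PCDHA12, which did not pass there. These examples were picked with their values known, and a link between the pattern and the differences was not tested.

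The brightest protocadherin probesets over the 15 arrays were those of PCDHGB4, PCDH10 and PCDH1, followed by the alpha genes PCDHA10, PCDHA8, PCDHA3, PCDHA5 and PCDHA1. Brightness also depends on the probes, so this is no order of transcript abundance, and levels are set against each other below only within a gene. PCDHGB4 averaged 6.07 ± 0.06 in JINB8 exosome RNA, 6.66 ± 0.06 in JK exosome RNA, 8.70 ± 0.07 in HUVEC with JINB8 exosomes, 8.87 ± 0.21 with JK exosomes and 10.28 ± 0.09 untreated (deposited log2, SD, n = 3 each). PCDH10, a protocadherin of neurons that binds the WAVE complex in mouse, averaged 5.19 ± 0.05 in JINB8 exosome RNA, 5.28 ± 0.07 in JK exosome RNA, 9.70 ± 0.80 in HUVEC with JINB8 exosomes, 8.95 ± 1.01 with JK exosomes and 11.02 ± 0.15 untreated. PCDH1, an adhesion protein of airway epithelium, averaged 6.01 ± 0.07 in JINB8 exosome RNA, 6.05 ± 0.10 in JK exosome RNA, 8.26 ± 0.15 in HUVEC with JINB8 exosomes, 8.32 ± 0.19 with JK exosomes and 10.52 ± 0.04 untreated. These 3 genes stood above the 75th percentile of all genes in every HUVEC group, as no other protocadherin did.

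The rank of a probeset within its own array does not move with the overall level of that array. Alpha genes had a median rank at the 91.6th percentile in JINB8 exosome RNA and the 92.6th in JK exosome RNA, with 10 of 12 above the 75th percentile in both, against the 52.7th, 52.2nd and 54.4th in HUVEC with JINB8 exosomes, with JK exosomes and untreated, with 0 of 12 above the 75th. Beta genes stayed low in all 5 groups, at medians of the 26.8th and 27.8th percentile in JINB8 and JK exosome RNA and the 20.9th, 22.1st and 23.4th in the 3 HUVEC groups. A higher rank in exosome RNA was not particular to alpha genes. The median of 41 other cadherin genes was at 52.2 and 50.4 there, against 24.1, 23.8 and 23.1 in the 3 HUVEC groups. The endothelial list went the other way, at 46.9 and 48.1 against 97.3, 96.9 and 96.4. Across the 15 arrays the 66 pairs of alpha genes had correlations of 0.81 to 0.99, which hold the shared level of the groups, and after the group means were taken out their median was 0.28 (a description over 15 arrays). The alpha genes share constant exons, and whether their probesets reach into them is not given in the sources used here.

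**Figure D1:**
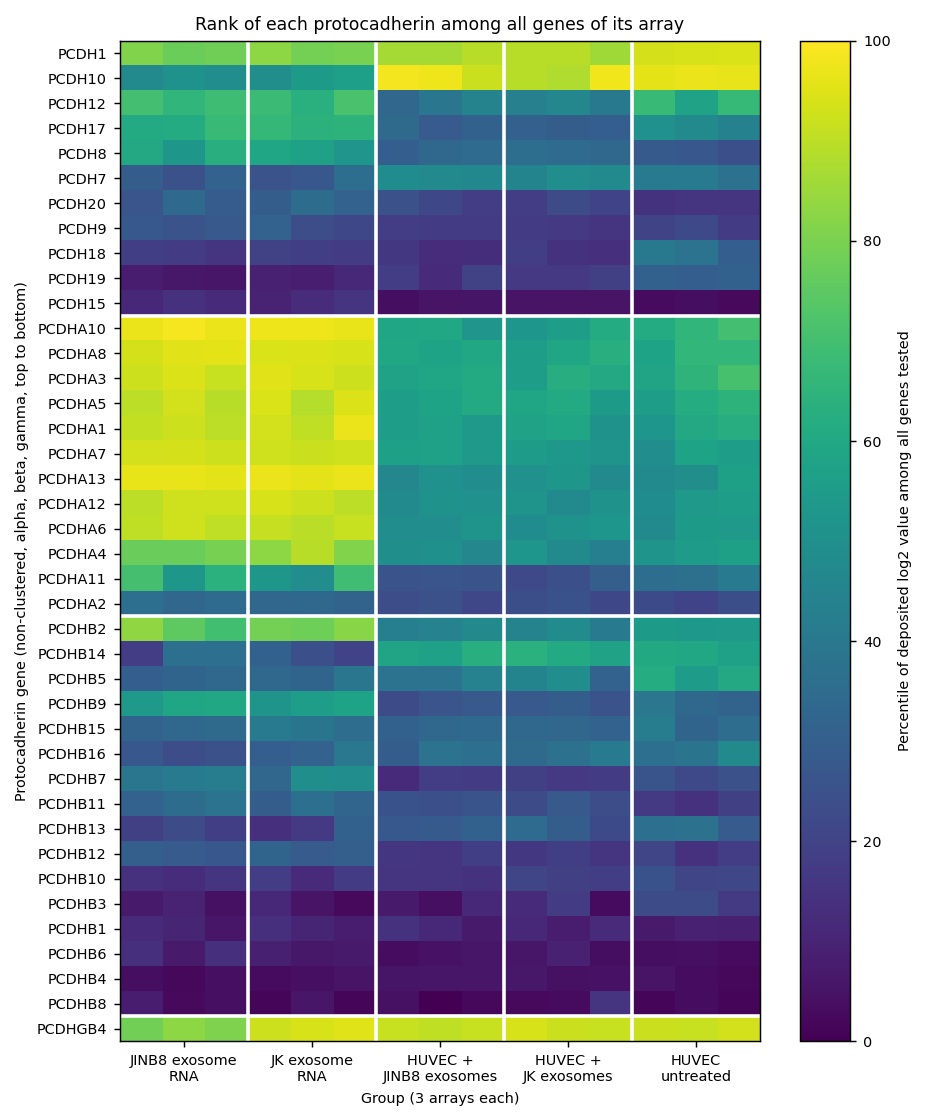
Rank of each of the 40 protocadherins (vertical axis, by cluster) among all genes of its own array, as a percentile of the deposited log2 value (colour), for 3 arrays in each of 5 groups (horizontal axis). Most alpha genes are bright in both exosome RNA groups (median 91.6 and 92.6) and in the middle of the range in HUVEC, where PCDH1, PCDH10 and PCDHGB4 stand above the 75th percentile.

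The first comparison set HUVEC kept for 6 h with exosomes against untreated HUVEC. All untreated arrays stood apart in overall level, and which arrays were processed as one set is not recorded. An effect of exosomes therefore cannot be told apart from other differences between these sets of arrays. Below, fell and rose mean lower and higher than in untreated cells. Because untreated arrays sit higher as a whole, with a median gene difference of -1.71 for HUVEC with JINB8 exosomes and -1.68 for HUVEC with JK exosomes as deposited, values were quantile-normalized over the 9 HUVEC arrays, which brought that median to 0.02 in both. With JINB8 exosomes 17 of 40 protocadherins passed (limma, Benjamini-Hochberg adjusted p under 0.05), 4 higher and 13 lower; of all genes 49.3% passed, 26% higher and 23.3% lower. With JK exosomes the counts were also 17 of 40, 4 higher and 13 lower, against 48.6% of all genes, 26.2% higher and 22.4% lower. The median protocadherin difference was -0.18 in both comparisons. The treated arrays did not overlap the untreated ones for 21 of 40 members with JINB8 exosomes (57.7% of all genes) and 17 of 40 with JK exosomes (56.1%). In total the share called was under that of all genes, while by direction 32.5% of members were called lower and 10% higher. These are counts over members chosen by name, and what follows describes single genes. The 2 comparisons share the untreated arrays: 16 genes were called in both, PCDHB10 only with JINB8 exosomes and PCDHA4 only with JK exosomes.

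PCDH12 fell most. After normalization it read 5.24, 5.59 and 5.92 in HUVEC with JINB8 exosomes, 5.85, 6.01 and 5.68 with JK exosomes, and 7.29, 6.65 and 7.23 untreated. Its log2 difference from untreated cells was -1.48 ± 0.19 with JINB8 exosomes (SE, limma adjusted p = 7.92e-05) and -1.21 ± 0.19 with JK exosomes (adjusted p = 0.000342), or 2.78-fold and 2.31-fold lower. Every treated array lay under every untreated one, with the lowest value in a JINB8-treated array. Less RNA per cell and fewer cells that carry it cannot be told apart in these bulk samples. Of the endothelial list, 3 of 13 rose and 3 fell with JINB8 exosomes (26% and 23.3% of all genes). With JK exosomes 2 rose and 2 fell (26.2% and 22.4% of all genes). KDR, the main VEGF receptor, differed by -1.34 and -1.03 on the log2 scale, whereas ERG, an endothelial ETS transcription factor, rose by 0.87 and 0.61 (JINB8 first).

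The 250 bases before the start of PCDH12 (GRCh38.p14, chr5:141958203-141958452, minus strand) are shown because this gene changed most and has no cluster element; capitals mark GGAA on either strand (GGAA or TTCC), the core that ETS factors bind.
PCDH12: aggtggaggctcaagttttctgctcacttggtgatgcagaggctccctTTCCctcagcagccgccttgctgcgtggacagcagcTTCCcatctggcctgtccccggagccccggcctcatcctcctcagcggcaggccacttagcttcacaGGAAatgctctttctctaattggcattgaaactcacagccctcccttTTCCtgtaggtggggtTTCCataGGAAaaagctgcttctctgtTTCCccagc
The stretch holds 7 matches, against a median of 3 in the same stretch of all promoters, and 4.1% of promoters hold as many. The gene was picked for its difference, so the 4.1% is no p-value. A match is a description of the letters and no evidence of binding. A link between these matches, ERG and the difference in PCDH12 was not tested.

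Another 4 genes outside the clusters fell in both comparisons. PCDH18, which binds the adaptor DAB1 in mouse, read 4.27, 4.06 and 4.07 in HUVEC with JINB8 exosomes, 4.41, 4.17 and 4.14 with JK exosomes, and 5.68, 5.53 and 5.08 untreated. The differences were -1.29 ± 0.14 (JINB8 exosomes, adjusted p = 2.69e-05) and -1.19 ± 0.14 (JK exosomes, adjusted p = 5.43e-05). The treated arrays clustered within a narrow band, well under the untreated ones. PCDH17, which organises synapses in mouse, read 5.34, 5.0 and 5.13 with JINB8 exosomes, 5.13, 5.06 and 5.08 with JK exosomes, and 6.24, 6.08 and 5.88 untreated. Its differences were -0.91 and -0.98 with JINB8 and JK exosomes, again without overlap. PCDH19, mutated in an X-linked epilepsy, read 4.40, 4.02 and 4.47 with JINB8 exosomes, 4.31, 4.30 and 4.45 with JK exosomes, and 5.14, 5.08 and 5.14 untreated, a difference of -0.82 ± 0.11 and -0.77 ± 0.11. PCDH1 read 8.68, 8.67 and 8.93 with JINB8 exosomes, 8.95, 8.95 and 8.6 with JK exosomes, and 9.51, 9.56 and 9.63 untreated. Its differences of -0.81 and -0.74 shrank to -0.43 and -0.42 when arrays were centred on their medians instead, and stayed past the threshold (adjusted p = 0.00393 and 0.00487).

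In the clusters 7 genes fell in both comparisons: PCDHB5, PCDHB3, PCDHB2, PCDHB9 and PCDHB7 of the beta cluster and PCDHA11 and PCDHA10 of the alpha cluster. PCDHB5 read 5.54, 5.54 and 5.90 with JINB8 exosomes, 5.93, 6.16 and 5.15 with JK exosomes, and 6.91, 6.5 and 6.83 untreated. Its difference was -1.09 ± 0.22 with JINB8 exosomes (adjusted p = 0.00175) and -1.0 ± 0.22 with JK exosomes (adjusted p = 0.00311). One JK-treated array lay far below the rest of its group, and all treated arrays lay under the untreated ones. PCDHA11 read 4.84, 4.88 and 4.85 with JINB8 exosomes, 4.63, 4.75 and 5.10 with JK exosomes, and 5.43, 5.47 and 5.69 untreated, a difference of -0.68 and -0.71. PCDHB3 was -0.86 and -0.66, PCDHA10 -0.53 and -0.57, PCDHB2 -0.51 and -0.51, PCDHB9 -0.51 and -0.41, and PCDHB7 -0.49 and -0.40 (JINB8 and JK exosomes, log2). Some of these calls were fragile. PCDHB3 with JK exosomes overlapped the untreated arrays and was at -0.38 (adjusted p = 0.099) without the third JK-treated array. Of the 6 fits that left out 1 array in each comparison, PCDHA10 lost its call in 3 with JINB8 exosomes and 3 with JK exosomes, PCDHB3 in 3 with JK exosomes and PCDHB9 in 2 with JK exosomes. Beside these, PCDHB10 differed by -0.46 ± 0.09 with JINB8 exosomes (adjusted p = 0.00111) and -0.18 ± 0.09 with JK exosomes (adjusted p = 0.106), and PCDHA4 by -0.33 ± 0.13 (adjusted p = 0.0551) and -0.38 ± 0.13 (adjusted p = 0.0318), a call lost in 4 of the 6 fits.

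In treated cells 4 genes were higher in both comparisons after quantile normalization, PCDHB11 by 0.51 and 0.49, PCDH7 by 0.43 and 0.42, PCDH20 by 0.40 and 0.33 and PCDH8 by 0.36 and 0.48 (JINB8 and JK exosomes, log2); as deposited all 4 were lower, by less than the shift of all genes. PCDH7, linked to brain metastasis in mouse models, read 6.15, 6.07 and 6.03 with JINB8 exosomes, 5.95, 6.15 and 6.11 with JK exosomes, and 5.70, 5.74 and 5.52 untreated. PCDHB11 read 4.81, 4.77 and 4.86 with JINB8 exosomes, 4.68, 4.96 and 4.71 with JK exosomes, and 4.32, 4.14 and 4.43 untreated. Neither gene's treated arrays overlapped the untreated ones. PCDH8 (arcadlin in rat, induced by neuronal activity) and PCDH20 were weaker calls: centred on array medians PCDH8 did not pass with JINB8 exosomes (adjusted p = 0.108) and PCDH20 did not with JK exosomes (adjusted p = 0.118). PCDH20 with JK exosomes also lost its call in 5 of the 6 fits that left out 1 array. PCDHB11 and PCDH20 were dim, at the 16.6th and 14.9th percentile in untreated arrays, and signal over background could not be judged.

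PCDH10 was the most scattered member among treated arrays. It read 10.70, 10.45 and 9.27 with JINB8 exosomes, 8.96, 8.80 and 10.55 with JK exosomes, and 10.00, 10.34 and 10.01 untreated, so both treatments held arrays above and below the untreated range. Its differences of 0.03 ± 0.43 and -0.68 ± 0.43 did not pass. PCDHGB4 differed by -0.14 ± 0.10 and 0.05 ± 0.10 and did not pass, though with arrays centred on their medians it was 0.25 (adjusted p = 0.0678) and 0.37 (adjusted p = 0.0127). Of the 12 alpha genes, 10 with JINB8 exosomes and 9 with JK exosomes did not pass.

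**Figure D2:**
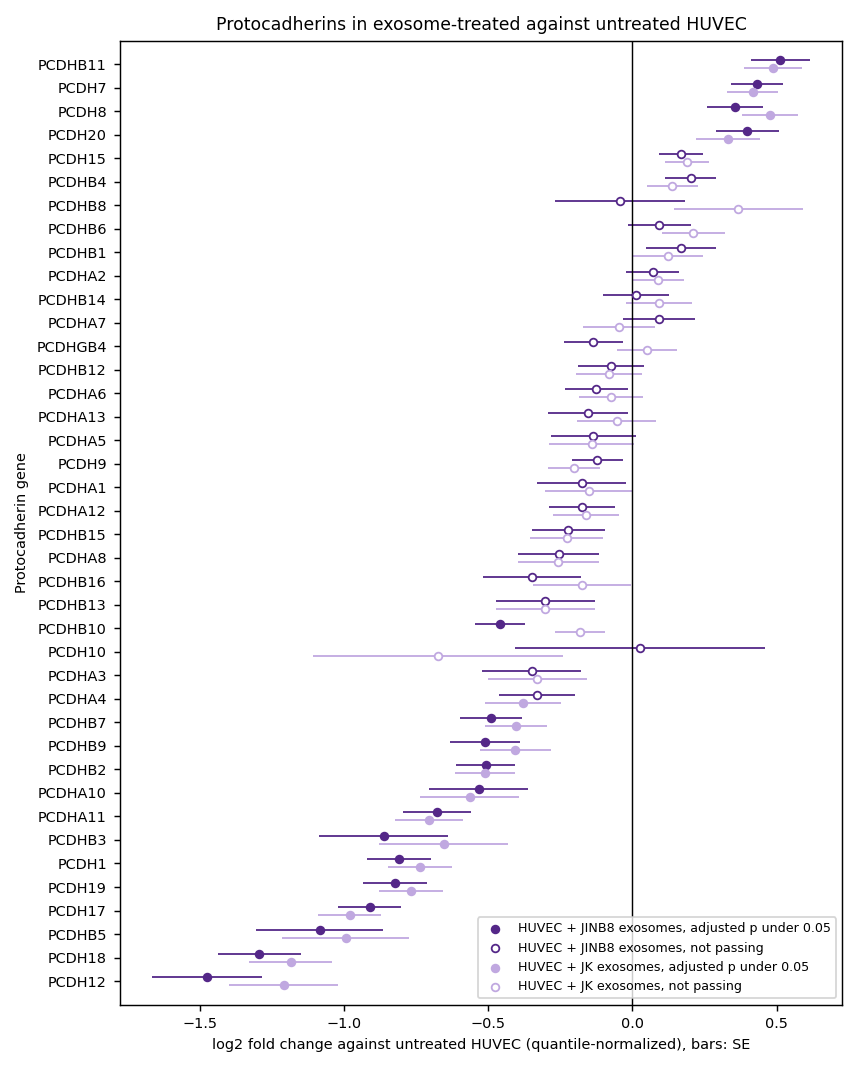
Log2 fold change of each of the 40 protocadherins in HUVEC with JINB8 exosomes (dark) and with JK exosomes (light) against untreated HUVEC, after quantile normalization over 9 arrays; bars are the standard error and filled points have adjusted p under 0.05. PCDH12, PCDH18 and PCDHB5 lie lowest, and PCDHB11, PCDH7, PCDH8 and PCDH20 are the filled points above 0; as deposited, all 40 genes were lower in treated cells.

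**Figure D3:**
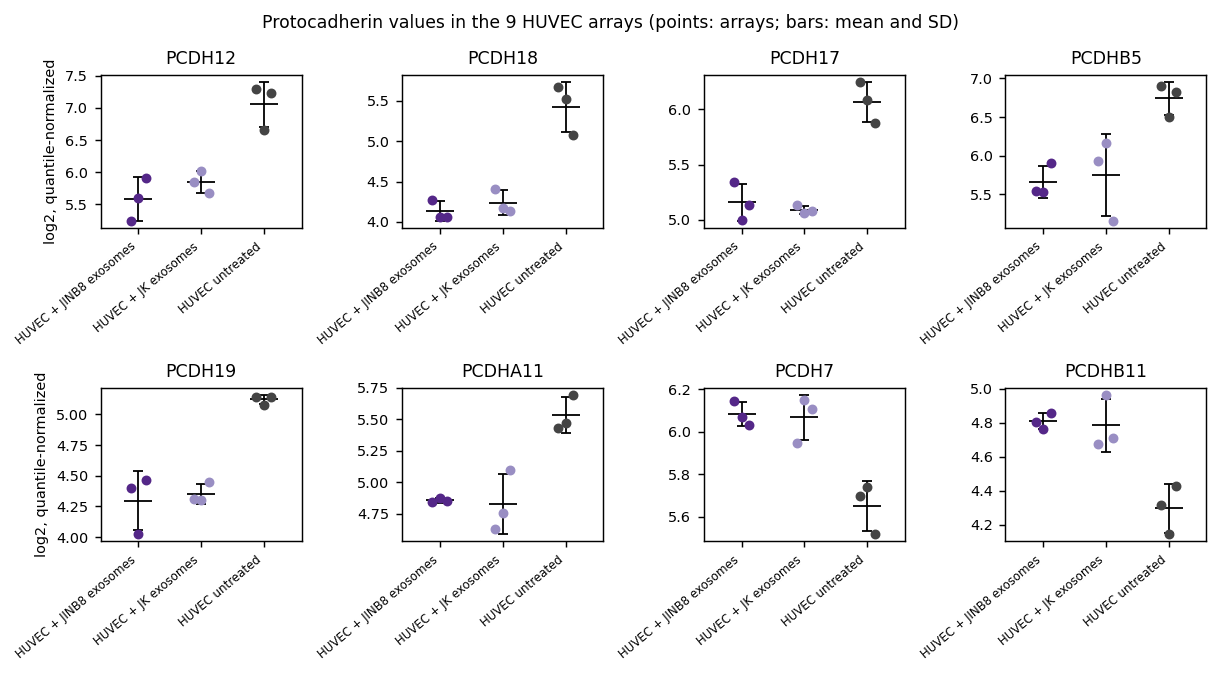
Quantile-normalized log2 values of 8 protocadherins in single arrays of HUVEC with JINB8 exosomes, with JK exosomes and untreated (points), with the mean and SD of each group of 3. In each panel the treated arrays lie on one side of the untreated ones, under them in 6 genes and over them in PCDH7 and PCDHB11.

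Of 12 mural and fibroblast markers 3 fell with each treatment, where 23.3% and 22.4% of all genes fell (JINB8 and JK exosomes). Among the falls TAGLN, a smooth muscle actin-binding protein, was at -4.96 and -5.06 on the log2 scale. RGS5, a pericyte marker, was at -0.26 and -0.44. In the list 2 rose with JINB8 exosomes, among them PDGFRA at 0.40, and 3 with JK exosomes, among them CSPG4 at 0.38. Of all genes 26% and 26.2% rose. The median difference of the list was 0.06 and -0.005 after quantile normalization. As deposited the summed list ran from 10.60 to 10.77 with JINB8 exosomes, 10.51 to 10.58 with JK exosomes and 12.54 to 12.67 untreated. These deposited sums hold the higher overall level of the untreated arrays. The part of these markers in the protocadherin differences was not tested. None of 13 T cell markers rose in treated cells, and 4 and 3 fell. The list was dim in HUVEC, with median ranks at the 22.1st, 16.3rd and 17.9th percentile (JINB8 exosomes, JK exosomes, untreated).

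The list counts that follow stand against all genes, of which 26% rose and 23.3% fell with JINB8 exosomes. With JK exosomes 26.2% rose and 22.4% fell. Among 41 other cadherin genes, 12 rose and 7 fell with JINB8 exosomes and 9 rose and 5 fell with JK exosomes. The strongest calls were all falls: CDH6 at -2.37 and -2.51, FAT1, a giant cadherin, at -1.66 and -1.78, CDH2 (N-cadherin) at -1.30 and -1.36, and DCHS1, the ligand of FAT4, at -0.97 and -1.08 on the log2 scale. Vinculin (VCL), which ties cadherin junctions to actin, was at -1.59 and -1.44. Of 19 genes that act on promoter choice in the clusters or silence them, 11 rose and 0 fell with either treatment, among them STAG1 (cohesin) by 1.5 and 1.41 and PDS5B, a cohesin regulator, by 0.79 and 0.69. Of 13 cytoplasmic partners 4 rose and 4 fell with JINB8 exosomes and 4 rose and 2 fell with JK exosomes, and of 7 genes that shed or cut protocadherins 2 rose and 1 fell and 3 rose and 2 fell. Of the 11 catenins and junction partners 2 rose and 4 fell with each treatment, VCL among the falls.

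The second comparison set HUVEC with JINB8 exosomes against HUVEC with JK exosomes, on deposited values, and asked whether the CD47 status of the donor cell mattered to the recipient. No protocadherin passed (0 of 40 by limma, background 0%), and at an unadjusted p under 0.05 there was 1 of 40 where all genes gave 9.11%. That 1 was PCDHB10, with 3.59, 3.59 and 3.56 in HUVEC with JINB8 exosomes and 3.86, 3.81 and 3.79 with JK exosomes, a difference of -0.24 ± 0.08 (limma adjusted p = 0.42). The groups did not overlap for 3 of 40 members, PCDHB10, PCDH9 and PCDHB4, against 17.5% of all genes. PCDH12 differed by -0.33 ± 0.19 and PCDH10 by 0.75 ± 0.43, and neither passed. PCDH10 read 10.27, 10.05 and 8.79 with JINB8 exosomes and 8.48, 8.26 and 10.11 with JK exosomes. The third array of each group thus lay near the first and second arrays of the other group. The fit counts such deviations as spread within a group, so the 0 of 40 is no evidence of equal levels. The reason for the crossed values was not tested.

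The third comparison was between the vesicles themselves, and here PCDHGB4 was the 1 member called. It read 6.01, 6.14 and 6.06 in JINB8 exosome RNA and 6.59, 6.69 and 6.69 in JK exosome RNA, so that every JINB8 array lay under every JK array by more than the range within either group. The difference was -0.59 ± 0.08 (1.5-fold lower, limma adjusted p = 0.0023). Among all genes 0.679% were called, 123 higher in JINB8 exosome RNA and 2 lower (0.668% and 0.0109%), so PCDHGB4 was 1 of the 2 lower genes; the other was SNRPA1, a spliceosome protein, at -0.41 ± 0.08 (adjusted p = 0.0315). The difference in PCDHGB4 held without each array in turn, at -0.62 to -0.56 (adjusted p at most 0.0184), and after quantile normalization at -0.62. PCDHGB4 is the only gamma gene among the members, and gamma genes share constant exons. Whether its probeset reaches into them is not given in the sources used here, so the signal may include other gamma genes.

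Another 4 members had a limma p under 0.05, so 5 of 40 did in all, against 8.06% of all genes, but none of the 4 passed the adjustment. PCDHB16 read 4.45, 4.34 and 4.37 in JINB8 exosome RNA and 4.58, 4.63 and 4.87 in JK exosome RNA, a difference of -0.31 ± 0.09 (adjusted p = 0.235). PCDHA4 differed by -0.21 ± 0.10, PCDH19 by -0.18 ± 0.08 and PCDHB15 by -0.18 ± 0.08. All 5 of these were lower in JINB8 exosome RNA. They were also the 5 of 40 members whose groups did not overlap, against 12.9% of all genes without overlap in either direction. The T cell genes CD3E and CD3D were 0.37 and 0.28 higher in JINB8 exosome RNA and did not pass (adjusted p = 0.112 and 0.436), and no gene of the endothelial, mural or other cadherin lists passed. Of the cytoplasmic partners RHOA, a small GTPase of the actin skeleton, was 0.63 ± 0.11 higher (adjusted p = 0.0201).

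**Figure D4:**
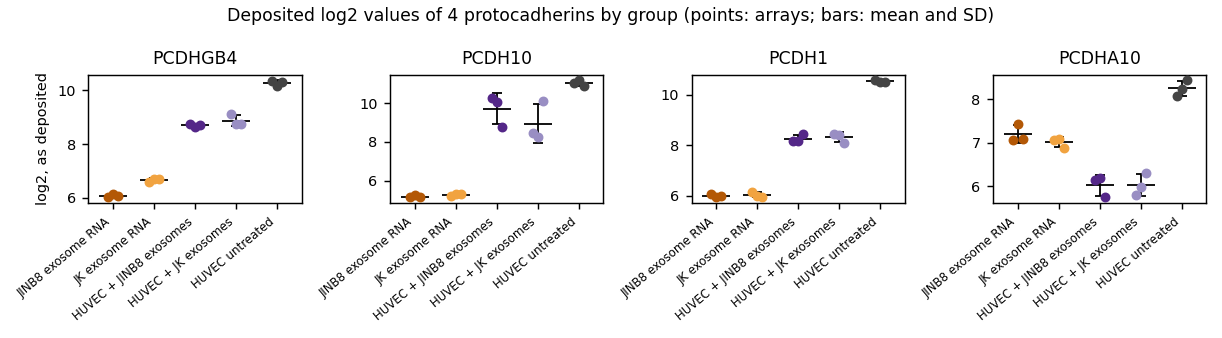
Deposited log2 values of PCDHGB4, PCDH10, PCDH1 and PCDHA10 in single arrays of the 5 groups (points), with the mean and SD of each group of 3; each panel has its own scale. The PCDHGB4 arrays of JINB8 exosome RNA (6.01 to 6.14) lie under those of JK exosome RNA (6.59 to 6.69), and untreated HUVEC lie highest in all 4 genes, on arrays whose overall level is higher.

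The fourth comparison set each exosome RNA against the HUVEC that had received those exosomes, on deposited values over 12 arrays. Nearly every gene differed, 92.5% for JINB8 (44.2% higher in exosome RNA, 48.3% lower) and 92.8% for JK (43.6% higher, 49.2% lower). Of 40 protocadherins, 34 were called for JINB8, 28 higher and 6 lower, and 33 for JK, 28 higher and 5 lower. The share called was thus under that of all genes, with most called members on the higher side. The median member was 0.59 and 0.50 higher in exosome RNA (JINB8, JK), against -0.11 and -0.15 for all genes. Exosome RNA and HUVEC differ in the cell they come from as well as in being vesicle or cell, and the 2 cannot be told apart.

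All 12 alpha genes were higher in exosome RNA in both comparisons, by 0.40 to 1.44 for JINB8 and 0.44 to 1.28 for JK, and this held with array medians aligned and after quantile normalization. PCDHA13 read 6.99, 6.98 and 6.88 in JINB8 exosome RNA against 5.36, 5.60 and 5.56 in HUVEC with JINB8 exosomes, and 7.02, 6.86 and 6.95 in JK exosome RNA against 5.68, 5.85 and 5.46 in HUVEC with JK exosomes. The differences were 1.44 ± 0.10 (adjusted p = 4.2e-10) and 1.28 ± 0.10 (adjusted p = 2.08e-09). The exosome arrays lay more than a log2 unit over the cell arrays in both pairs. PCDHA11 was higher by 1.36 and 1.21, PCDHA10 by 1.18 and 0.98, PCDHA12 by 0.98 and 0.89, PCDHA6 by 0.94 and 0.77, PCDHA3 by 0.47 and 0.45, PCDHA4 by 0.46 and 0.67, and the lowest was PCDHA5 at 0.40 and 0.44 (JINB8, JK). Quantile normalization over the 12 arrays, which stretches the narrower exosome arrays, raised PCDHA13 to 2.92 in both comparisons and PCDHA10 to 2.92 and 2.76.

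Beta genes were mixed, with 9 higher and 2 lower of 16 for JINB8 and 9 higher and 1 lower for JK as deposited, and 6 higher and 5 lower, and 6 higher and 2 lower, after quantile normalization. PCDHB7 read 4.88, 4.95 and 4.97 in JINB8 exosome RNA against 3.45, 3.76 and 3.74 in HUVEC with JINB8 exosomes, and 4.70, 5.20 and 5.14 in JK exosome RNA against 3.76, 3.66 and 3.73 in HUVEC with JK exosomes. It was higher by 1.28 and 1.30, PCDHB9 by 1.25 and 1.03, and PCDHB12 by 0.84 and 0.93. PCDHB14 went the other way in both pairs. It read 4.07, 4.80 and 4.79 in JINB8 exosome RNA against 6.09, 6.02 and 6.39 in HUVEC with JINB8 exosomes, and 4.62, 4.36 and 4.18 in JK exosome RNA against 6.5, 6.32 and 6.07 in HUVEC with JK exosomes, a difference of -1.61 and -1.91. PCDHB16 was lower for JINB8 alone, at -0.29 ± 0.13 (adjusted p = 0.0405), with overlapping arrays; it lost its call in 5 of the 6 fits that left out 1 array and turned to 0.096 (adjusted p = 0.483) with medians aligned. Some small beta increases also turned: PCDHB1 and PCDHB10 for JINB8 (0.28 and 0.34) and PCDHB4 for JK (0.25) were at -0.078, -0.036 and -0.091 after quantile normalization, none past the threshold. For JK, PCDHB1 (0.42) and PCDHB6 (0.46) shrank to 0.017 and 0.083 and lost their calls, whereas PCDHB15 (0.25) stayed called at 0.27, though not without the first JK exosome array (adjusted p = 0.0548). PCDHB1 for JINB8 also lost its call in 4 of the 6 fits that left out 1 array.

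The genes outside the clusters went both ways, with 7 higher and 3 lower of 11 for each line. PCDH10 was the lowest, with 5.15, 5.24 and 5.17 in JINB8 exosome RNA against 10.27, 10.05 and 8.79 in HUVEC with JINB8 exosomes, and 5.20, 5.32 and 5.33 in JK exosome RNA against 8.48, 8.26 and 10.11 in HUVEC with JK exosomes. The exosome arrays were tight and the cell arrays wide, without overlap. Its differences were -4.52 ± 0.39 for JINB8 (22.9-fold lower, adjusted p = 8.26e-09) and -3.67 ± 0.39 for JK (12.7-fold lower, adjusted p = 1.22e-07). After quantile normalization they were -2.95 and -2.24, still called. PCDH1 was at -2.25 and -2.28 (-0.52 and -0.48 after quantile normalization) and PCDH7 at -0.93 and -0.94 (-0.54 and -0.49 with medians aligned). The remaining 7 called genes were higher in exosome RNA: PCDH17 by 1.08 and 1.15, PCDH8 by 0.88 and 0.63, PCDH15, a component of hair-cell tip links, by 0.78 and 0.79, PCDH12 by 0.77 and 0.41, PCDH9 by 0.72 and 0.74, PCDH20 by 0.63 and 0.76 and PCDH18 by 0.50 and 0.50. After quantile normalization PCDH12 was at 1.32 and 1.08, PCDH8 at 1.16 and 0.96, PCDH15 at 0.45 and 0.41, PCDH9 at 0.44 and 0.43 and PCDH20 at 0.40 and 0.55, all still called. PCDH15 was dim throughout, at the 12.8th and 12.5th percentile in JINB8 and JK exosome RNA. In HUVEC with JINB8 and JK exosomes PCDH15 was at the 4.95th and 5.21st. PCDH12 for JK lost its call without the third JK-treated array (adjusted p = 0.0654), and PCDH18 lost its call after quantile normalization (0.15 and 0.14). PCDH19 did not pass in either as deposited (-0.18 and -0.03), was called lower in both after quantile normalization (-0.52 and -0.40) and was called higher for JK with medians aligned (0.42).

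PCDHGB4 was lower in exosome RNA as deposited, at -2.63 for JINB8 and -2.21 for JK, but its value rested on the scaling: after quantile normalization it was -0.72 (adjusted p = 5.5e-06) for JINB8 and 0.16 (adjusted p = 0.137) for JK. Its rank within the array was at the 80.9th percentile in JINB8 exosome RNA and the 91.2nd in HUVEC with JINB8 exosomes, and at the 93.9th in JK exosome RNA and the 92.5th in HUVEC with JK exosomes. The exosome-minus-cell difference for JINB8, less that for JK, was -0.42 ± 0.13 (limma adjusted p = 0.198), and passed after quantile normalization (adjusted p = 0.0104). No other member differed between the 2 pairs at an unadjusted p under 0.05, and none was called as deposited, where 0.787% of all genes were.

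**Figure D5:**
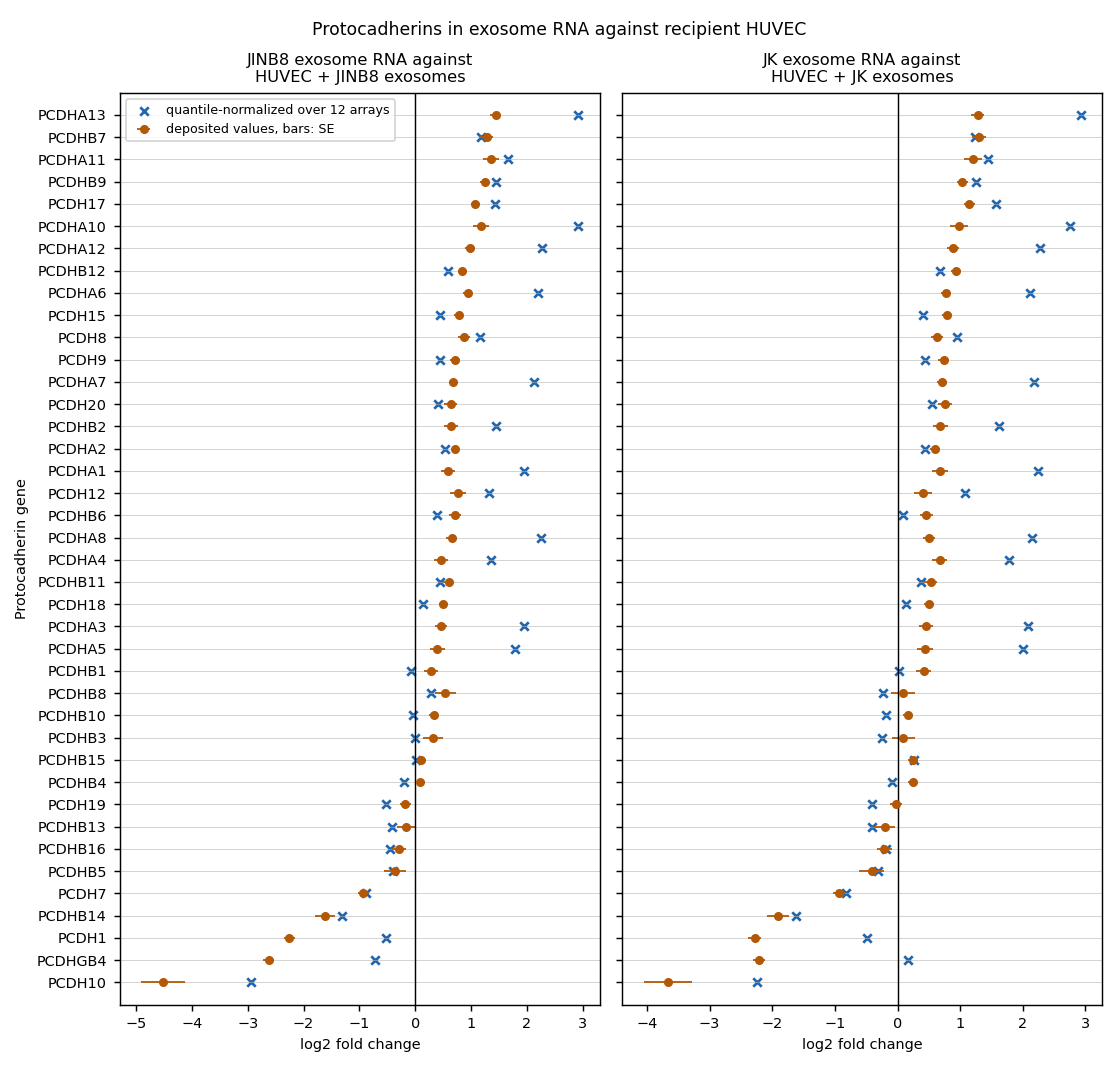
Log2 fold change of each of the 40 protocadherins in JINB8 exosome RNA against HUVEC with JINB8 exosomes (left) and in JK exosome RNA against HUVEC with JK exosomes (right); circles are deposited values with the standard error and crosses are values quantile-normalized over 12 arrays. All 12 alpha genes lie to the right under both, and all but PCDHA2 lie further out after normalization. PCDHGB4 lies at -2.63 (JINB8) and -2.21 (JK) as deposited and at -0.72 and 0.16 after normalization.

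The marker and related lists were counted in the same arrays. Of all genes 44.2% were higher and 48.3% lower for JINB8, and 43.6% and 49.2% for JK. All 13 measured T cell markers were higher in both exosome RNAs, and 12 of 13 endothelial markers were lower. Of the mural and fibroblast list 9 of 12 were higher and 2 lower in both. Of 41 other cadherin genes 29 were higher and 8 lower in both, with VE-cadherin (CDH5) at -6.34 and -6.16 for JINB8 and JK. Of 11 catenins and junction partners 6 were higher and 5 lower in both. Of the 19 genes of cluster promoter choice 18 were lower, of 13 cytoplasmic partners 11, and of 7 shedding genes 6, with the sheddase ADAM10 at -6.03 and -5.90. The part of cell source in the protocadherin differences was not tested.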

How the data were processed

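RNA from 15 samples (3 in each of 5 groups, 300 ng labelled per sample, per the labels' protocols) was measured on whole-transcript arrays. The deposited log2 values were used. Per the submitters' processing notes the authors made them with Affymetrix Expression Console; no version, background correction or normalization is recorded there, nor which arrays were processed as one set. No detection calls came with the values, so the number of arrays limits the precision and signal over background could not be judged.

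Of 33297 probesets, 19460 had 1 gene symbol in the platform annotation, 1754 had several and 12083 were not listed; the 1-symbol probesets gave 18417 genes. Differences were fitted across all genes with limma 3.58.1 in R 4.3.3 (lmFit and eBayes) and Benjamini-Hochberg adjustment, threshold 0.05. HUVEC comparisons used 9 arrays, exosome RNA 6, and exosome RNA against HUVEC 12. Comparisons with untreated HUVEC used quantile-normalized values, the others deposited ones. Standard errors are limma's. An exact permutation test of 3 against 3 arrays cannot give a p under 0.1.

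The text names, per comparison, every called gene outside the clusters and, of the called clustered genes, the 8 highest and 8 lowest fold changes; with fewer than 5 called it adds the 3 highest and 3 lowest at an unadjusted p under 0.05. Other members that are named were chosen after their values were seen. Members and lists were chosen with earlier results of these data known. Same-numbered arrays did not deviate together (r = -0.41 to 0.24 in HUVEC, -0.04 to 0.03 in exosome RNA, all genes), so the numbers were not used as pairs. Treated HUVEC arrays did deviate together across numbers. The third JK-treated array went with the first and second JINB8-treated arrays (r = 0.28 and 0.19). The third JINB8-treated array went with the first and second JK-treated arrays (r = 0.26 and 0.29). The reason for this was not tested, and the labels were used as given. The fits were tested on simulated data. Alternatives were other scalings, a filter on dim genes, the mean of probesets, a variance trend with robust fitting, the replicate number as a block, other sets of arrays in the fit, and leaving out each array.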

Additional observations from a re-analysis of the deposited data

How the results depend on the processing

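The comparisons with untreated HUVEC rest on the scaling. As deposited 40 of 40 protocadherins were lower in either treatment, so the 4 genes reported higher reversed: PCDHB11 to -1.42 and -1.42, PCDH7 to -1.48 and -1.44, PCDH8 to -1.65 and -1.48 and PCDH20 to -1.5 and -1.54 (JINB8 and JK exosomes), which the whole-array shift by itself would bring. Median centring called 24 (8 higher, 16 lower) with JINB8 exosomes and 25 (8 and 17) with JK exosomes. Of all 18417 genes it called 7025 higher and 3450 lower, and 6462 higher and 3587 lower. Cyclic loess called 20 members (6 and 14) and 21 (6 and 15). For cyclic loess, the filter on dim genes, the replicate block and the fits without 1 array the share over all genes is not given. Without the 40% dimmest genes, 7 of 18 members left were called with each (1 higher, 6 lower). In each comparison of exosome RNA with HUVEC 16 of 16 were called (12 higher, 4 lower). The filter leaves fewer and brighter members, and the reason for the other share called was not tested. For exosome RNA against HUVEC quantile normalization gave 34 (24 higher, 10 lower) for JINB8 and 30 (24 and 6) for JK. Of all 18417 genes it called 9209 higher and 7277 lower, and 9163 higher and 7386 lower. It turned PCDHGB4 (0.16) and PCDHB4 (-0.091) for JK and PCDHB1 (-0.078) and PCDHB10 (-0.036) for JINB8. Median centring turned PCDHB16 (0.096) for JINB8. The cause was not tested. Leaving out 1 array gave 16 to 22 and 14 to 17 calls against untreated HUVEC (JINB8, JK), 31 to 34 and 32 to 35 for exosome RNA against HUVEC, 1 in each fit between exosome RNAs and 0 between treated HUVEC. With the replicate number as a block, 19 and 17 members were called against untreated HUVEC, 34 and 33 for exosome RNA against HUVEC, 1 between exosome RNAs and 0 between treated HUVEC, and no named member lost its call.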
